A study of Mus musculus with 12 samples.

Results

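Vegfa, Vegfb, Vegfc, Pgf, Angpt1, Angpt2, Hif1a, Epas1, Slc2a1 and Car9 were followed in epididymal white adipose tissue (eWAT) of mice on a high-fat diet (HFD). They are angiogenic growth factors and genes of the response to low oxygen, chosen by symbol, and all 10 were present among the 49315 genes of the count table and among the 18702 genes tested. Mice of 2 genotypes were compared, Mir181a2b2 flox/flox mice (flox) and Mir181a2b2-/- mice (KO), the latter lacking the microRNA locus in every cell rather than in 1 cell type. All mice, controls included, ate the 60% fat diet for 12 weeks and were injected into the peritoneum each week with vehicle or with methotrexate (MTX, 1 mg/kg), an antifolate drug used in arthritis. This gave 4 groups of 3 mice with 1 RNA library per mouse: flox vehicle, KO vehicle, flox MTX and KO MTX. The methods name males, matched for age and drawn from littermates, without giving the age for this experiment. Libraries are named here by group and the replicate number of their label.

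The vascular endothelial growth factors (VEGFs) and placental growth factor are secreted ligands that act on receptor tyrosine kinases of endothelial cells. Vegfa drives sprouting of blood vessels and is made in quantity by adipocytes, Vegfc acts mainly on lymphatic vessels, and the angiopoietins act on the receptor Tek, where Angpt1 stabilizes vessels and Angpt2 opposes it in many settings. Hif1a and Epas1 encode the oxygen-regulated subunits of the hypoxia-inducible factors (HIFs), whose protein is degraded when oxygen is ample. Slc2a1, the glucose transporter GLUT1, and Car9, a membrane carbonic anhydrase, are classical HIF targets, as is Vegfa. Their RNA says nothing direct about HIF protein.

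The deleted locus encodes miR-181a-5p and miR-181b-5p. Per the paper, Mir181b is also expressed from a separate Mir181a-1/Mir181b-1 cluster, and the knockout deletes Mir181a-2 and Mir181b-2. KO mice therefore need not lack these microRNAs altogether. The mature sequences are shown because their shared seed (bases 2 to 8, in capitals) is what a microRNA uses to recognize a target. Both sequences are from RefSeq, build GRCm38.p6, plus strand, at chr2:38852741-38852763 and chr2:38853845-38853868.
mmu-miR-181a-5p: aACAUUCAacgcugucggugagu
mmu-miR-181b-5p: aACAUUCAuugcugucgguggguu
The complement of this seed, TGAATGT, was absent from the longest annotated 3′ untranslated region of all 10 genes, whereas 3450 of 21027 mouse genes (16.4%) held it. Among genes with such a region of similar length, within 20% of each member's, that share ran from 5.02% for Vegfb to 25.3% for Angpt1. The precursors themselves could not serve as a check of the genotype, since Mir181a-2 had 2 counts in flox MTX replicate 4 and 0 in the other libraries, and Mir181b-2 had 0 throughout.

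HIFs bind DNA at a short core, read here as ACGTG or GCGTG on either strand, in windows from 250 bases before to 50 bases after a RefSeq transcript start (build GRCm38.p6). Of all 32851 such windows, 43.8% held a match, as did 6 of the 9 windows (66.7%) of the 7 members with an entry (Vegfa, Vegfb, Vegfc, Pgf, Hif1a, Slc2a1, Car9). ACGTG alone was in 19.6% of all windows and in 4 of the 9 (44.4%). Angpt1, Angpt2 and Epas1 had no entry. The windows of Car9 (chr4:43506776-43507075, plus strand) and of the upstream start of Vegfa (chr17:46032328-46032627, minus strand) are printed because these HIF targets differed between genotypes in opposite directions. Capitals mark the core on the minus strand, as its complement, at base -18 from the Car9 start, and the Vegfa window has no match.
Car9: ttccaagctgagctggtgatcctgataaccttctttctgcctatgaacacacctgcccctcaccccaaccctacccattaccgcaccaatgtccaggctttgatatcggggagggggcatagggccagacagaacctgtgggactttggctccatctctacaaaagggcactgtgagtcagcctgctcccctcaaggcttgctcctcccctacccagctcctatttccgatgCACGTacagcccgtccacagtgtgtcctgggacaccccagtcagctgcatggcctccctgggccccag
Vegfa: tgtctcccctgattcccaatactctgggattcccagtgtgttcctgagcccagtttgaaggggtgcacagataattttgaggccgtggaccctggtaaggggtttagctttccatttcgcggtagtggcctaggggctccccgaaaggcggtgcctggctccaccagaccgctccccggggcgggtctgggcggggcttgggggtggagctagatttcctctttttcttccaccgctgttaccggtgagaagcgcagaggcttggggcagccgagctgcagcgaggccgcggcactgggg
The window of Slc2a1 (chr4:119108495-119108794, plus strand) held GCGTG on the minus strand at -61 and ACGTG on the plus strand at -36. A second Vegfa window, at an internal start (chr17:46025114-46025413, minus strand), held both cores. A match describes letters and not binding. Bases outside the windows were not searched, and a link between a match and a level was not tested.

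Depth lay between 19495310 and 23976469 counts per library. Adipocyte markers were abundant in all libraries, with all 15 above 3 counts in each, as fits adipose tissue, but the 3 flox vehicle libraries also carried transcripts of the neighbouring organs. The epididymis marker sum, in CPM (counts scaled to a common library size), was 4681 in flox vehicle replicate 1, 12850 in replicate 3 and 1520 in replicate 4. Among the other libraries flox MTX replicate 1 had 433 CPM, and the remaining 8 had 20.6 CPM or less. Testis germ cell markers summed to 212 to 584 CPM in flox vehicle and to at most 12.3 CPM elsewhere. Member comparisons with flox vehicle are therefore also given without its replicates 1 and 3, the libraries with the highest sums. That fit keeps 1 flox vehicle mouse, which still carried 1520 CPM, and takes its spread from the other groups, so calls are harder to reach in it (1415 of all genes between genotypes under vehicle, against 5924) and the size of the difference is the value to compare. Markers of other cell types moved with genotype as well. Macrophage markers summed to 724 to 1297 CPM in flox vehicle, 5228 to 9755 in KO vehicle, 888 to 6535 in flox MTX and 7553 to 13350 in KO MTX, and all 15 were called higher in KO than in flox mice under vehicle. Endothelial markers summed to 456 to 680, 1053 to 1584, 445 to 842 and 738 to 1189 CPM in the same order, with 11 of 12 called higher under vehicle. Adipocyte markers summed to 28212 to 57519, 30442 to 46646, 39982 to 63761 and 19918 to 37134 CPM. In bulk tissue, more cells of a type and more RNA per cell cannot be told apart.

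Levels of the 10 genes spanned a wide range. Per kilobase of exon, the mean over all 12 libraries was highest for Vegfb (57.5 CPM per kb) and Epas1 (55.9), followed by Vegfa (24.6) and Hif1a (16.5). Slc2a1 (5.94), Vegfc (3.95), Angpt2 (3.89) and Pgf (3.14) formed a lower tier, and Angpt1 (1.13) and Car9 (1.04) were the lowest. The order differed between groups. Vegfb was first in both flox groups and Epas1 in both KO groups, Pgf went from rank 5 in flox vehicle to rank 8 in the other groups, and Vegfa stood below Hif1a only in KO MTX (12.5 against 18.0 CPM per kb). All further levels are CPM scaled with TMM (trimmed mean of M-values) factors, and each mean is followed by the SD of its 3 mice.

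**Figure D1:**
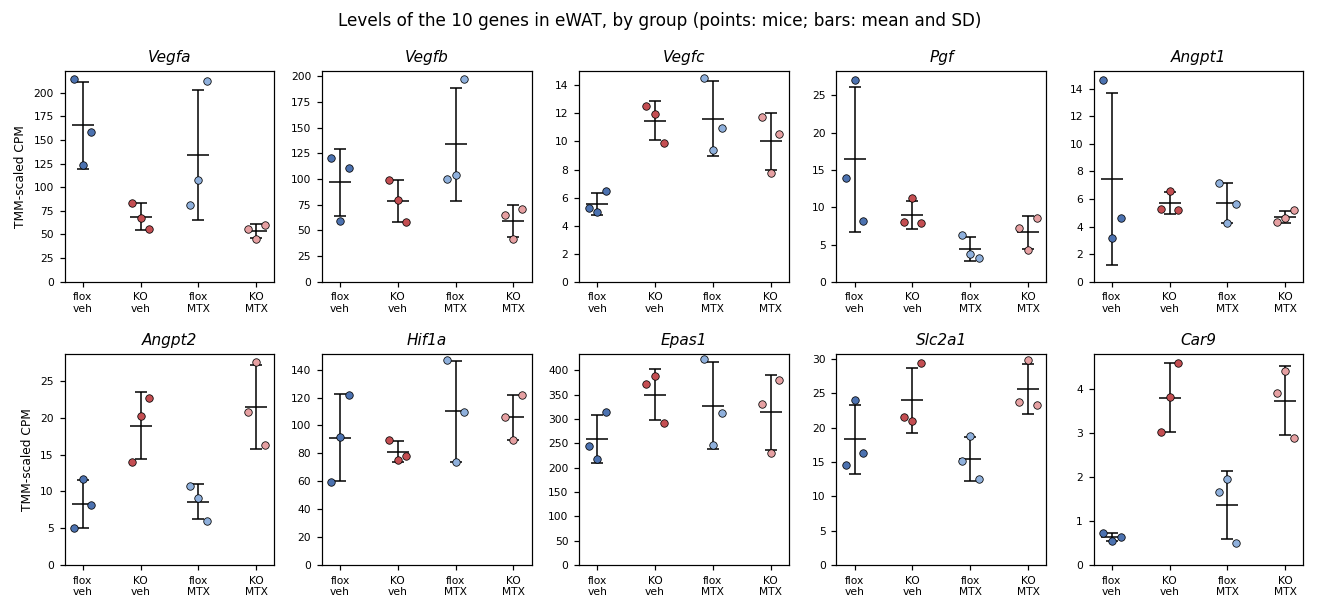
Level of each of the 10 genes in TMM-scaled CPM (vertical axes, from 0) in the 4 groups (horizontal axes), with 1 point per mouse and the mean and SD in black. Vegfa lay at 123 to 215 CPM in flox vehicle and at 55.5 to 83.6 in KO vehicle, while Angpt2 and Car9 were higher in both KO groups than in both flox groups.

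The first question was which of these genes differed between KO and flox mice under vehicle. A gene was called when edgeR's quasi-likelihood test, adjusted by Benjamini-Hochberg over all genes tested, gave an adjusted p below 0.1 and the fold change was at least 1.5. Vegfa fell and Vegfc, Angpt2 and Car9 rose in KO mice, 4 of 10 members, where 31.7% of all genes tested were called (13.9% higher and 17.8% lower). The groups did not overlap for the same 4, where 48.1% of all genes did not overlap. A share of this size is near the background of this comparison. With 3 mice against 3, the exact two-sided permutation test cannot go below 0.1, which is the p it gave for each of these 4 genes.

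Vegfa (ENSMUSG00000023951, chr17:46016993-46032369, minus strand) was at 215, 123 and 158 CPM in replicates 1, 3 and 4 of flox vehicle, and at 83.6, 67.6 and 55.5 CPM in KO vehicle replicates 1, 2 and 3. The lowest flox mouse was thus above the highest KO mouse. The means were 165 ± 46.0 (SD, n = 3) and 68.9 ± 14.1 CPM, a 2.40-fold lower level in KO (log2 fold change -1.26, SE 0.33, edgeR adjusted p = 0.0154). Vegfa was called with each library left out in turn (-1.44 to -1.03), but not without flox vehicle replicates 1 and 3 together (-1.19, edgeR adjusted p = 0.145). Vegfb (ENSMUSG00000024962, chr19:6982473-6987651, minus strand), a VEGF linked to fatty acid handling, was at 59.6 to 121 CPM in flox vehicle and 58.0 to 99.4 in KO vehicle. These ranges overlapped almost entirely (log2 fold change -0.30, edgeR adjusted p = 0.550).

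Vegfc (ENSMUSG00000031520, chr8:54077606-54187096, plus strand) was at 5.29, 4.96 and 6.46 CPM in the flox vehicle mice and at 12.5, 11.98 and 9.89 CPM in the KO vehicle mice. Every KO mouse was above every flox mouse, and the mean was 2.06-fold higher (log2 fold change 1.04, SE 0.23, edgeR adjusted p = 0.00704). It was 0.83 and not called without flox vehicle replicates 1 and 3 (edgeR adjusted p = 0.173). Pgf (ENSMUSG00000004791, chr12:85166635-85177790, minus strand), placental growth factor, was at 13.97, 27.1 and 8.17 CPM in replicates 1, 3 and 4 of flox vehicle, and at 7.96, 11.2 and 7.92 CPM in the KO vehicle mice. The ranges overlapped and Pgf was not called (log2 fold change -0.86, edgeR adjusted p = 0.152). The Pgf value rested on single flox mice: it was -1.18 and called without flox vehicle replicate 4 (edgeR adjusted p = 0.0449), -0.30 without replicate 3 (edgeR adjusted p = 0.616), and 0.15, with the sign turned, without replicates 1 and 3 (edgeR adjusted p = 0.874). The order of Pgf over the 3 flox vehicle mice was that of their epididymis markers, as for 28.1% of all genes tested and for no other member. The part of the epididymis transcripts in the Pgf level was not tested.

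The angiopoietins differed in their behaviour. Angpt2 (ENSMUSG00000031465, chr8:18690263-18741562, minus strand), which lies inside Mcph1 on the opposite strand without shared exonic bases, was at 5.08, 11.6 and 8.17 CPM in the flox vehicle mice and at 13.96, 20.2 and 22.7 CPM in the KO vehicle mice. All KO mice were above all flox mice, with a 2.28-fold higher mean (log2 fold change 1.19, SE 0.33, edgeR adjusted p = 0.0212). The difference was 1.22 and not called without flox vehicle replicates 1 and 3 (edgeR adjusted p = 0.135). Angpt1 (ENSMUSG00000022309, chr15:42424723-42676977, minus strand) was at 14.6, 3.19 and 4.62 CPM in replicates 1, 3 and 4 of flox vehicle, and at 5.20 to 6.61 CPM in KO vehicle. The single high flox mouse set the group mean, and the groups overlapped (log2 fold change -0.39, edgeR adjusted p = 0.562). Without that mouse the fitted value turned to 0.55, and without flox vehicle replicates 1 and 3 to 0.31, and it was not called in any of these fits.

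Of the hypoxia genes, Car9 (ENSMUSG00000028463, chr4:43506966-43513729, plus strand) changed the most while being the least abundant. It had 17, 14 and 14 counts in the flox vehicle libraries (0.738, 0.551 and 0.646 CPM) and 60, 90 and 98 counts in the KO vehicle libraries (3.02, 3.81 and 4.59 CPM). There was no overlap, and the mean was 5.91-fold higher in KO (log2 fold change 2.55, SE 0.44, edgeR adjusted p = 0.00359). Car9 remained called with each library left out and without flox vehicle replicates 1 and 3 together (2.55, edgeR adjusted p = 0.0993). An antisense gene, Gm12454, shares 214 exonic bases (9.29%) with Car9 and had 137 counts over all 12 libraries. The strand setting of the counting is not stated, so reads in the shared bases cannot be assigned.

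The HIF subunits and the glucose transporter showed no call under vehicle. Hif1a (ENSMUSG00000021109, chr12:73901375-73947530, plus strand) was at 59.8 to 122 CPM in flox vehicle and 75.6 to 89.6 in KO vehicle, the KO range lying within the flox range (edgeR adjusted p = 0.679). Epas1 (ENSMUSG00000024140, chr17:86753700-86833410, plus strand) was at 218 to 314 and 291 to 388 CPM (edgeR adjusted p = 0.210), with a mean 1.35-fold higher in KO. Slc2a1 (ENSMUSG00000028645, chr4:119108711-119137983, plus strand) was at 14.6, 24.03 and 16.3 CPM in replicates 1, 3 and 4 of flox vehicle, and at 20.96 to 29.4 CPM in KO vehicle. Only flox vehicle replicate 3 reached into the KO range, and without it Slc2a1 was called higher in KO (log2 fold change 0.63, edgeR adjusted p = 0.0677), against 0.39 and an adjusted p of 0.226 with all libraries. Without flox vehicle replicates 1 and 3 the log2 values were -0.48 for Vegfb, -0.58 for Hif1a, 0.16 for Epas1 and 0.56 for Slc2a1, none called. These misses do not show equal levels.

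**Figure D2:**
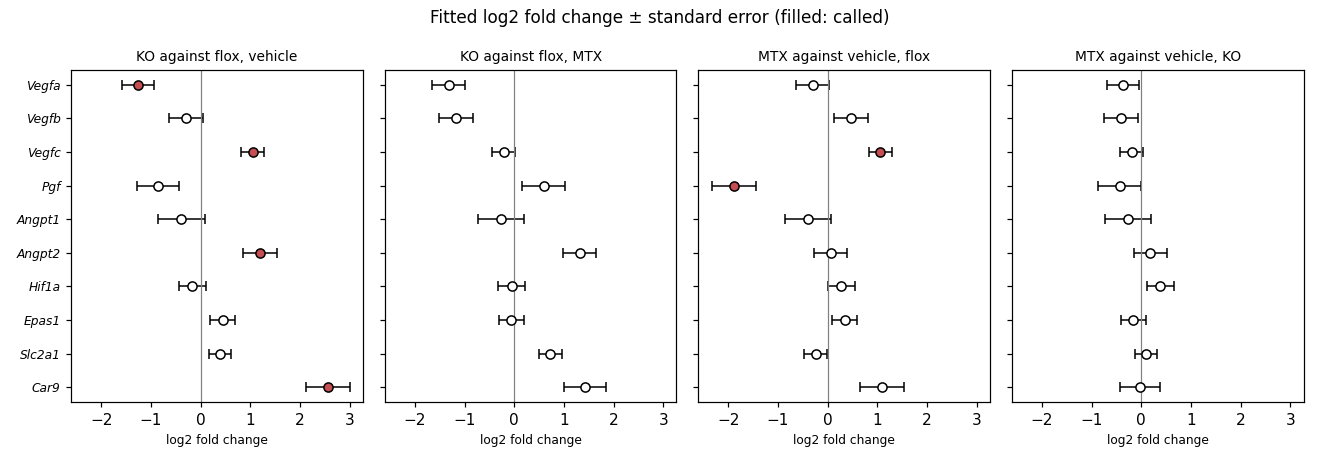
Fitted log2 fold change (horizontal axes) and standard error of the 10 genes (vertical axis) in the 4 comparisons between groups, with filled points for called genes. Filled points are Vegfa, Vegfc, Angpt2 and Car9 in KO against flox mice under vehicle and Vegfc and Pgf in MTX against vehicle in flox mice.

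The second question was whether KO and flox mice also differed under MTX, a comparison whose means do not involve flox vehicle, although those libraries shared in the estimate of the spread. No member was called, and neither was any of the 18702 genes (0%), as the smallest adjusted p of the whole table was 0.104. At an unadjusted p below 0.05 stood 5 members, and 24.5% of all genes. DESeq2 at the same limits called these 5 members, with 14.8% of all genes called. The 5 were Vegfa, Vegfb, Angpt2, Slc2a1 and Car9, whose groups also did not overlap (26.8% of all genes). Whether this share differs from the background was not tested.

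Under MTX, Vegfa was at 81.4, 108 and 212 CPM in flox replicates 1, 2 and 4, and at 55.8, 44.9 and 59.8 CPM in KO replicates 2, 3 and 4. The mean was 2.50-fold lower in KO (log2 fold change -1.32, SE 0.33, edgeR adjusted p = 0.104). Vegfb was at 99.6, 104 and 198 CPM in flox and at 65.2, 41.5 and 71.3 CPM in KO mice (log2 fold change -1.17, SE 0.35, edgeR adjusted p = 0.111). For both genes flox replicate 4 stood highest and every KO mouse lay below every flox mouse. Angpt2 was at 10.8, 9.13 and 6.003 CPM in flox and at 20.7, 27.6 and 16.3 CPM in KO mice, a log2 difference of 1.31 (SE 0.34, edgeR adjusted p = 0.104). Slc2a1 was at 15.1, 18.8 and 12.4 CPM in flox and at 23.7, 29.8 and 23.2 CPM in KO mice (log2 fold change 0.73, SE 0.23, edgeR adjusted p = 0.117). Again the genotypes were separated for both genes.

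Car9 was at 1.65, 1.95 and 0.5002 CPM in the flox MTX mice (35, 43 and 8 counts) and at 3.91, 4.42 and 2.88 CPM in the KO MTX mice (log2 fold change 1.43, SE 0.42, edgeR adjusted p = 0.110). Its lowest value was in flox MTX replicate 4, the mouse that had the highest Vegfa and Vegfb and the lowest Angpt2 and Slc2a1 of its group. The same mouse had the lowest macrophage marker sum of the group (888 CPM, against 3051 and 6535). Its adipocyte marker sum was the highest of the group (63761 CPM, against 58232 and 39982). The part of the macrophage and adipocyte transcripts in these values was not tested. Without flox MTX replicate 2 the same 5 genes were called, with 4064 of 19532 genes called in all. Without flox vehicle replicate 3 all of them but Car9 were called, with 1028 of 19024 genes called in all. Vegfc, Pgf, Angpt1, Hif1a and Epas1 overlapped between genotypes under MTX (edgeR adjusted p = 0.417 or more).

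The genotype differences were then set against the marker sums of the same libraries. Under vehicle, Vegfa came to 1.81 to 1.92 counts per 1000 adipocyte marker counts in KO mice and 2.99 to 4.73 in flox mice, a 2.06-fold lower mean without overlap (exact permutation p = 0.1, the smallest possible for 3 against 3). Under MTX the same ratio was 1.52 to 2.40 in KO and 1.23 to 2.75 in flox mice. Here the groups overlapped (1.21-fold, exact permutation p = 0.6), whereas Vegfa in CPM did not. Vegfb per 1000 adipocyte marker counts also overlapped between genotypes, at 1.96 to 2.24 against 2.08 to 2.28 under vehicle and 1.77 to 2.22 against 1.51 to 2.65 under MTX.

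Angpt2, which is made largely by endothelial cells, was at 10.7 to 22.1 counts per 1000 endothelial marker counts in KO vehicle and 11.4 to 18.5 in flox vehicle (exact permutation p = 0.9). On this scale its 2.28-fold difference in CPM became 1.06-fold. Under MTX the ratio was 13.8 to 39.7 in KO and 9.74 to 20.9 in flox mice, again with overlap (exact permutation p = 0.3). Vegfc per 1000 endothelial marker counts was 8.13 to 9.65 in KO vehicle and 7.88 to 11.8 in flox vehicle. On this scale, too, the genotypes overlapped (exact permutation p = 0.5). Other marker lists gave other results under vehicle. Per adipocyte marker count the KO mean was 2.38-fold higher for Angpt2, with overlap, and 2.33-fold higher for Vegfc, without overlap. Per macrophage marker count the KO mean was 3.41-fold lower for Angpt2 and 3.27-fold lower for Vegfc, both without overlap. Car9 stayed higher in KO vehicle per 1000 endothelial marker counts (2.32 to 4.48 against 0.876 to 1.65), but overlapped under MTX (2.45 to 6.37 in KO and 0.812 to 4.47 in flox mice, exact permutation p = 0.4). Against macrophage markers it overlapped, at 0.484 to 0.648 counts per 1000 in KO vehicle and 0.509 to 0.823 in flox vehicle. Slc2a1 under MTX overlapped per 1000 endothelial marker counts (19.7 to 43.0 in KO and 15.8 to 42.9 in flox mice, exact permutation p = 0.7). It also overlapped per 1000 macrophage marker counts (2.38 to 3.11 against 2.92 to 11.5). Per 1000 adipocyte marker counts Slc2a1 did not overlap (0.632 to 1.59 against 0.160 to 0.477). Ratios give unequal change of gene and markers, and do not locate a transcript in a cell type.

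**Figure D3:**
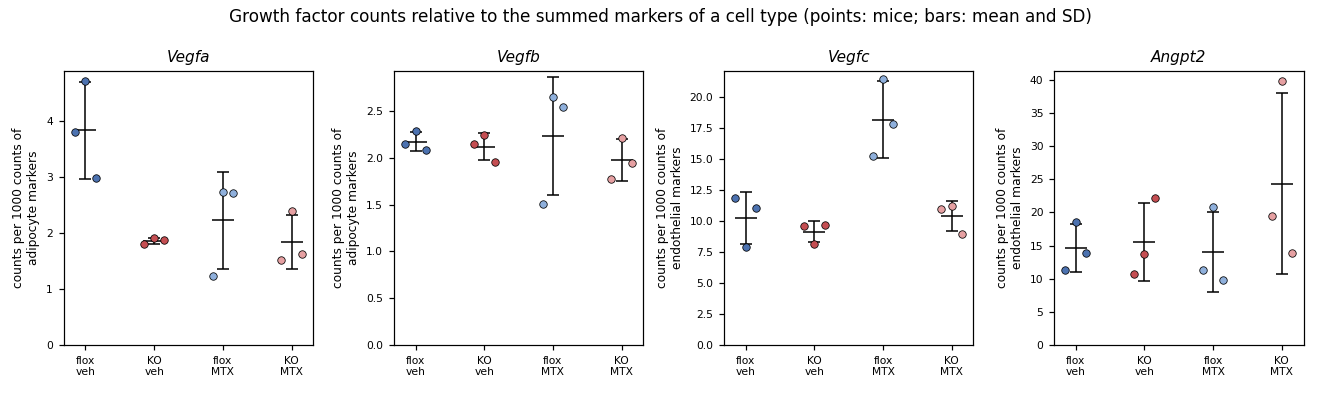
Counts of Vegfa and Vegfb per 1000 adipocyte marker counts and of Vegfc and Angpt2 per 1000 endothelial marker counts (vertical axes, from 0) in the 4 groups, with 1 point per mouse and the mean and SD in black. Vegfa is lower in KO vehicle (1.81 to 1.92) than in flox vehicle (2.99 to 4.73), and Vegfc is highest in flox MTX (15.3 to 21.4).

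The third question was how the genes responded to MTX. In flox mice, Vegfc rose and Pgf fell, 2 of 10 members, with 24.2% of all genes called (8.09% higher and 16.1% lower). The same 2 did not overlap between treatments, as did 28.3% of all genes. Markers of other cells moved in the same comparison: 12 of 15 macrophage, 5 of 10 fibroblast and 5 of 8 mesothelium markers were called higher, and 2 mesothelium, 8 epididymis and all 10 testis germ cell markers lower. Their part in the member results was not tested. Vegfc was at 14.5, 9.36 and 10.9 CPM in flox MTX replicates 1, 2 and 4, all above the flox vehicle mice (4.96 to 6.46 CPM), a 2.09-fold higher mean (log2 fold change 1.06, SE 0.23, edgeR adjusted p = 0.0119). Per 1000 endothelial marker counts it was also above, at 15.3 to 21.4 against 7.88 to 11.8 (exact permutation p = 0.1), and above KO MTX (8.96 to 11.2). Pgf was at 6.28, 3.73 and 3.19 CPM in the flox MTX mice, all below the flox vehicle mice (8.17 to 27.1 CPM), a 3.72-fold lower fitted level (log2 fold change -1.90, SE 0.44, edgeR adjusted p = 0.0157). Both genes were called with each library left out, at 0.86 to 1.21 for Vegfc and -2.24 to -1.33 for Pgf.

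Without flox vehicle replicates 1 and 3 together neither was called, at 0.85 for Vegfc (edgeR adjusted p = 0.313) and -0.88 for Pgf (edgeR adjusted p = 0.487). With 1 flox vehicle mouse left, the size of the difference is the value to compare. With all libraries it was 1.06 for Vegfc and -1.90 for Pgf, so the Pgf value shrank more than the Vegfc value. The part of the epididymis transcripts in this change was not tested. The fitted values of the other members in this fit ran from -0.24 (Vegfa) to 1.10 (Car9), none called. Car9 had a log2 fold change of 1.10 with MTX in flox mice (edgeR adjusted p = 0.105). It was called, together with Vegfa, without flox MTX replicate 4, the mouse with 8 Car9 counts, where 4999 of 19644 genes were called. DESeq2 called Car9 as well, in addition to the same 2 members, with 25.8% of all genes called. In CPM the other members overlapped between treatments, including Vegfa (81.4 to 212 against 123 to 215 CPM) and Hif1a (73.9 to 147 against 59.8 to 122 CPM). Per 1000 adipocyte marker counts Vegfa did not overlap, at 1.23 to 2.75 in flox MTX and 2.99 to 4.73 in flox vehicle. On that scale its mean was 1.72-fold lower with MTX (exact permutation p = 0.1).

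In KO mice no member was called and none had an unadjusted p below 0.05, against 7.97% of all genes, and 0% of genes were called. DESeq2 called no member and 281 genes in all. Hif1a was higher and Angpt1 lower in every MTX mouse than in every vehicle mouse (20.7% of all genes did not overlap). Hif1a was at 106, 89.8 and 122 CPM against 89.6, 75.6 and 77.9, and Angpt1 at 4.35, 4.64 and 5.20 against 5.29, 6.61 and 5.20. The Angpt1 difference was smaller than its fitted error (log2 -0.27, SE 0.47), and its groups touch at the printed precision. That of Hif1a was log2 0.39 (SE 0.28). Hif1a was also above per 1000 adipocyte marker counts (2.88 to 4.80 against 1.94 to 2.63) and per 1000 endothelial marker counts (99.1 to 130 against 51.3 to 76.1). Per 1000 macrophage marker counts it overlapped (7.16 to 16.3 against 8.21 to 17.3). Vegfc, which rose with MTX in flox mice, was at 7.76 to 11.7 CPM in KO MTX and 9.89 to 12.5 CPM in KO vehicle.

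The difference between genotypes in the response to MTX was tested as an interaction. No member was called (0.989% of all genes were), and 2 members had an unadjusted p below 0.05, as did 15.0% of all genes. For Vegfc the KO response minus the flox response was -1.26 on the log2 scale (SE 0.32, edgeR adjusted p = 0.126). DESeq2 called this value (adjusted p = 0.0115; 6.67% of all genes called), as did edgeR without flox vehicle replicate 4 (adjusted p = 0.0563). For Pgf it was 1.46 (SE 0.61, edgeR adjusted p = 0.293). Without flox vehicle replicates 1 and 3 these values were -1.05 for Vegfc and 0.45 for Pgf, neither called. Vegfa had -0.06 (SE 0.46), an error too wide to show that its responses were alike.

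The surrounding pathway was read through 4 lists of genes, chosen with earlier results of these data known. Of 8 receptors for VEGFs and angiopoietins, 6 were called higher in KO than in flox mice under vehicle, beside 13.9% of all genes, with a list median of 0.88 on the log2 scale against -0.06 over all genes. Nrp2, a co-receptor, had the largest difference (1.45, SE 0.29, edgeR adjusted p = 0.00492; 82.4 to 113 CPM in KO and 25.2 to 41.5 in flox), followed by the lymphatic receptor Flt4 (1.09, SE 0.33) and Tie1 (1.07, SE 0.34). The endothelial marker list had a median of 1.202 in the same comparison and the macrophage list 2.77. Nrp2 was highest, at 151 CPM, in KO MTX replicate 3, the KO library with the lowest endothelial (738 CPM) and the highest macrophage sum (13350 CPM). The part of either cell type in the receptor values was not tested. Without KO vehicle replicate 2 the count was 3, and without flox vehicle replicates 1 and 3 together it was 0. No receptor was called with MTX in flox mice (list median -0.05).

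Among 14 other angiogenic ligands and inhibitors, Pdgfb, which recruits pericytes (1.31, SE 0.20, edgeR adjusted p = 0.00284), and Adm, adrenomedullin (0.93, SE 0.30), were called higher and Fgf2 lower (-0.68, SE 0.26) in KO mice under vehicle. This is 3 of 14, beside 31.7% of all genes called, and the list median was 0.48. The count of 3 fell to 1 without flox vehicle replicate 1, without KO vehicle replicate 3, or without flox vehicle replicates 1 and 3 together. With MTX in flox mice 4 were called higher, beside 8.09% of all genes: Thbs2, Vegfd, Adm and Fgf1. Vegfd, the closest relative of Vegfc, went from 28.9 to 58.7 CPM in flox vehicle to 58.4 to 93.2 CPM in flox MTX (log2 fold change 0.91, SE 0.26, edgeR adjusted p = 0.0319), with ranges that overlapped narrowly. Thbs2, an inhibitor of angiogenesis, had a log2 fold change of 1.74 (SE 0.67, edgeR adjusted p = 0.0910). Its ranges also overlapped, at 17.0 to 49.8 CPM in flox vehicle and a wide 27.6 to 238 CPM in flox MTX. None of these 4 was called without flox vehicle replicate 3, and 2 were without flox vehicle replicate 1, KO vehicle replicate 2, KO vehicle replicate 3 or KO MTX replicate 4.

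Of 9 genes of oxygen sensing, Cited2, an inhibitor of HIF co-activation, was called higher (0.71, SE 0.19) and Arnt2, a HIF dimer partner (-5.73, SE 0.77), and Hif1an, the asparagine hydroxylase FIH (-0.69, SE 0.17), were called lower in KO mice under vehicle. A count of 3 of 9 is close to the 31.7% of all genes called. Arnt2 was at 45.9, 111 and 14.4 CPM in replicates 1, 3 and 4 of flox vehicle, in the order of their epididymis markers, at 5.34 CPM in flox MTX replicate 1 and at 2.09 CPM or less elsewhere. Cited2 was at 32.8 to 48.1 CPM in flox vehicle and at 57.9 to 97.8 CPM in the other groups, and was also called higher with MTX in flox mice (1.05, SE 0.19, edgeR adjusted p = 0.00629). Arnt2 was called lower there (-4.29). Without flox vehicle replicates 1 and 3 together 2 genes were called between genotypes and 1 with MTX.

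Of 36 further HIF target genes, 6 were called higher and 6 lower in KO mice under vehicle, with a list median of -0.01 against -0.06 over all genes. This count of 12 is near the background of 31.7% (13.9% higher and 17.8% lower). Plod2, a collagen lysyl hydroxylase, had the largest rise (1.41, SE 0.29, edgeR adjusted p = 0.00577), and Lox, P4ha1, P4ha2, Ddit4 and Pfkfb4 were also called higher, beside fibroblast markers that summed to 2036 to 3856 CPM in flox vehicle and 7390 to 11858 in KO vehicle. Slc2a3, the glucose transporter GLUT3 (-2.99, SE 0.36), and Car12, a carbonic anhydrase related to Car9 (-2.83, SE 0.71), had the largest falls. Slc2a3 was at 64.1, 107 and 40.6 CPM in replicates 1, 3 and 4 of flox vehicle, again in the order of the epididymis markers. Pfkfb3, Hk2, Stc2 and Pdk1 were called lower as well. In the same flox mice Pdk1 (52.5, 102 and 38.6 CPM) and Hk2 (173, 208 and 171 CPM) followed that order too. Pfkfb3 (802, 582 and 1047 CPM) had the reverse order, and Car12 (5.81, 16.9 and 7.66 CPM) had neither. Of all genes tested, 28.1% had the order of the epididymis markers. The count of 12 was 7 without KO vehicle replicate 3 and 1 without flox vehicle replicates 1 and 3 together. The part of the epididymis and fibroblast transcripts in these calls was not tested.

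With MTX in flox mice 3 HIF targets were called higher (Lox, P4ha1 and Plod2) and 3 lower (Car12, Slc2a3 and Hk1), at a list median of 0.32 against 0.05 over all genes. This is 6 of 36, beside 24.2% of all genes called (8.09% higher and 16.1% lower). The count was 3 with either flox vehicle replicate 1 or 3 left out, or with flox MTX replicate 1 left out. In these fits 3778 of 19243, 2219 of 19024 and 4441 of 19620 genes were called. The count of HIF targets was 15 when flox vehicle replicate 4 and 18 when flox MTX replicate 2 was absent. There 5995 of 19402 and 4685 of 19532 genes were called. Between genotypes under MTX and with MTX in KO mice no gene of the 4 lists was called, and at an unadjusted p below 0.05 stood 7 and 2 of the 36 HIF targets, beside 24.5% and 7.97% of all genes. DESeq2 called 6 HIF targets and 2 receptors between genotypes under MTX.

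**Figure D4:**
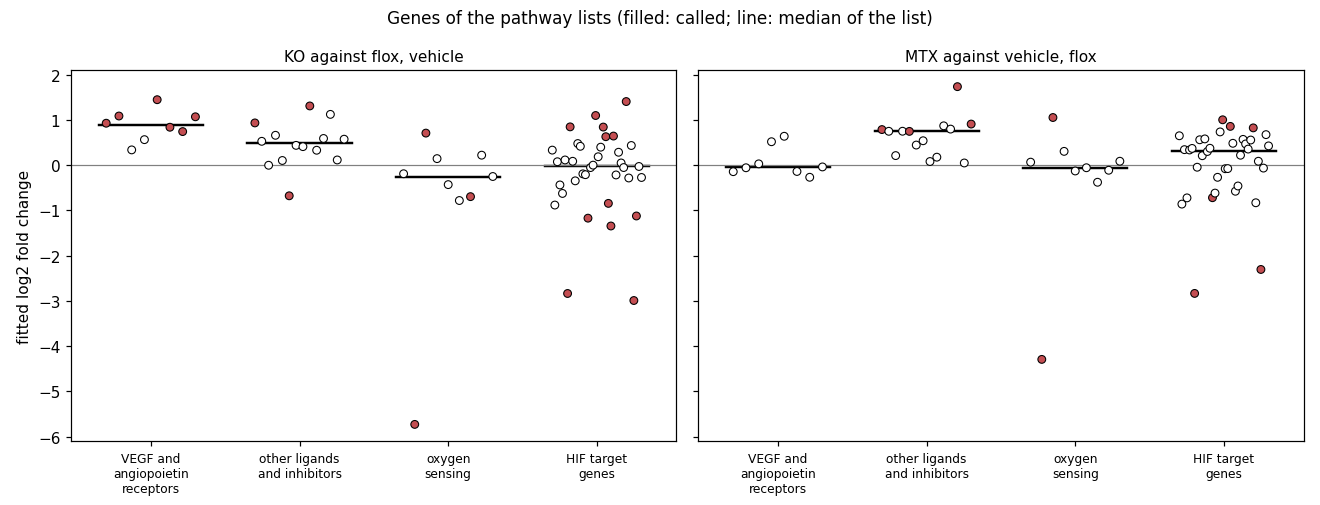
Fitted log2 fold change (vertical axis) of each gene of the 4 pathway lists (horizontal axis) for KO against flox mice under vehicle and for MTX against vehicle in flox mice, with filled points for called genes and a line at the list median. Of the 8 receptors, 6 are filled and above 0 on the left and none on the right, and the lowest point in both panels is Arnt2.

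**Figure D5:**
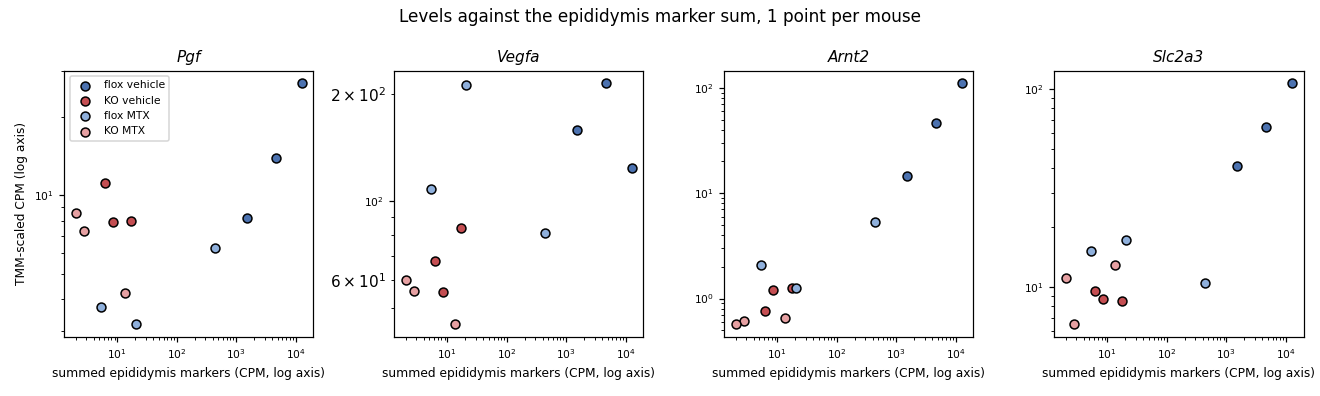
Level of Pgf, Vegfa, Arnt2 and Slc2a3 (vertical axes, TMM-scaled CPM, log) against the summed epididymis markers of the same mouse (horizontal axes, CPM, log), colored by group. Pgf, Arnt2 and Slc2a3 follow the marker sum over the 3 flox vehicle mice at the right (1520 to 12850 CPM), and Vegfa does not.

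For 3 members the genes with the most similar pattern over the 12 libraries were listed, by Pearson's r of log2 CPM with 0.5 added. Nearest to Vegfa were Gm45470 (r = 0.983), Cachd1 (0.981) and the adipose-expressed cytochrome Cyp2e1 (0.981), which ranged from 559 to 4303 CPM in flox vehicle and from 16.7 to 113 CPM in KO vehicle. Nearest to Angpt2 were Pgm5 (0.978), Aldh18a1 (0.977) and Frmd4a (0.965), and nearest to Hif1a were Pigs (0.961), Col4a2 (0.939) and Efcab14 (0.925). The 12 points share the 4 groups and their marker content, so these values describe likeness only.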

How the data were processed

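RNA from eWAT of 12 mice was sequenced. Per the labels it was polyA RNA, whereas the methods give ribosomal depletion. Per the submitters' processing notes the authors trimmed reads with Trimmomatic 0.36, aligned them with STAR 2.5.2b to GRCm38 and counted them with featureCounts (Subread 1.5.2). The methods name Ensembl release 79. The deposited values are raw counts per gene without normalization, and 99.3% of genes had a symbol. The strand setting and the treatment of multimapping reads are not given in the sources used here.

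Counts were fitted in R 4.3.3 with edgeR 4.0.16 (TMM, filterByExpr by group, 1 coefficient per group, glmQLFit, quasi-likelihood F-test, Benjamini-Hochberg over all 18702 genes). SEs were derived from the log2 fold change and F. The alternatives were DESeq2 1.42.0, other scalings, filters and limits, a replicate block, the 6 libraries of a comparison alone, and each library left out. The joint removal of flox vehicle replicates 1 and 3 and the marker ratios were added after the values were seen. The procedure was tested on simulated counts. Single values were compared by exact two-sided permutation tests (scipy 1.17.1). Coordinates are GRCm38, GENCODE M21, and sequences are from RefSeq (GRCm38.p6). The members and lists were chosen with earlier results of these data known. Named pathway genes were called ones, up to 3 per list and comparison with values. Other called genes, named without values except for Pdk1, Hk2 and Pfkfb3, were picked after their values were seen. The p-values cover the spread between these mice. A count of 0 allows up to 3 counts, counting error only.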

Additional observations from a re-analysis of the deposited data

Results flagged for a closer look

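Slc2a3, the glucose transporter GLUT3 and a HIF target, was the only gene of the 4 pathway lists whose response to MTX differed between genotypes by the interaction test (log2 difference, KO response minus flox response, 2.49, SE 0.49, edgeR adjusted p = 0.0830). It was at 64.1, 107 and 40.6 CPM in replicates 1, 3 and 4 of flox vehicle, at 10.5 to 17.3 CPM in flox MTX, at 8.46 to 9.53 CPM in KO vehicle and at 6.48 to 12.9 CPM in KO MTX, so that the flox vehicle mice stood apart from the other groups. Their order was that of the epididymis marker sum (4681, 12850 and 1520 CPM). In the same interaction test 0.989% of all genes were called, and 9 of 10 testis germ cell markers were called higher, the direction of Slc2a3. Of 12 epididymis markers tested, 0 were called in it. The testis marker sum was 584, 495 and 212 CPM in flox vehicle replicates 1, 3 and 4, which is not the order of Slc2a3. The part of the epididymis and testis transcripts in the Slc2a3 difference was not tested. The size of this difference changed less than the call. The call was lost with at least 10 counts in every library (log2 difference 2.51, adjusted p = 0.206), with a replicate block (2.16, adjusted p = 0.227), without flox vehicle replicate 1 (2.56, adjusted p = 0.119) or 3 (2.06, adjusted p = 0.152), and without both, with 1 flox vehicle mouse left (1.69, adjusted p = 0.447). It was also lost without KO vehicle replicates 1, 2 or 3, flox MTX replicate 2, or KO MTX replicates 3 or 4, each in turn (log2 difference 2.28 to 2.54, adjusted p from 0.119 to 0.293). DESeq2 gave an adjusted p of 0.000309.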

How the results depend on the processing

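No log2 fold change printed for a member with an unadjusted p below 0.05 changed sign under any alternative. The number of members called moved as follows. With a log2 fold limit of 1.5 it was 1 between genotypes under vehicle (Car9) and 1 with MTX in flox mice (Pgf). Without flox vehicle replicates 1 and 3 together, the same 2 counts were 1 and 0. Between genotypes under MTX the count of 0 became 5 with DESeq2, 3 without a low-count filter and 4 when each library had to hold at least 10 counts. The interaction gave 1 with DESeq2 (Vegfc). With each library left out in turn, the counts ran from 4 to 5 and from 0 to 5 between genotypes under vehicle and MTX, from 2 to 4 and from 0 to 0 for MTX in flox and KO mice, and from 0 to 1 for the interaction. Under the stricter count filter Car9 was not tested.

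No pairing of the mice by replicate number was seen. The median residual correlation was 0.0353 over 12 pairs sharing a number (-0.273 to 0.254) and 0.0112 over 42 others (-0.379 to 0.454). Values this scattered cannot show that the mice were unpaired. With the replicate number as a block the members called were 4, 0, 2, 0 and 0 in the 5 comparisons, as without it, and all genes called with MTX in flox mice fell from 4528 to 2771 and for the interaction from 185 to 0.

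Over all genes, calls between genotypes under MTX went from 0 to 2769 (DESeq2), 875 (no low-count filter), 1491 (at least 10 counts), 4 (only its 6 libraries) and 17 (without flox vehicle replicates 1 and 3), and to 1028, 76 and 4064 without flox vehicle replicate 3, flox MTX replicate 1 or flox MTX replicate 2. The same 2 missing libraries took the calls under vehicle from 5924 to 1415 and those of MTX in flox mice from 4528 to 580. A log2 limit of 1.5 left 3026 and 2791. Calls of MTX in flox mice were 2198 with at least 10 counts 2167 in only its 6 libraries and 2219 without flox vehicle replicate 3. MTX in KO mice gave 281 (DESeq2), 20 (no filter) 3 (only its 6 libraries) and 215 (without KO vehicle replicate 3). The interaction gave 1248 (DESeq2), 472 (no filter), 1 (at least 10 counts) 5 (without the 2 libraries) and 5 to 1371 with each library left out. Library size as the only scaling moved the median of all genes from 0.05 to -0.15 for MTX in flox mice and from -0.05 to 0.12 between genotypes under MTX, and the split of calls with MTX in flox mice from 1513 higher and 3015 lower to 766 and 3607. By CPM without gene length, Epas1, Vegfa, Hif1a and Vegfb ranked 1 to 4. Between genotypes under vehicle, the means of Vegfb, Angpt1, Hif1a, Epas1 and Slc2a1 lay within the fold limit of 1.5. With all libraries these genes also missed the p limit (edgeR adjusted p = 0.210 or more). Without a fold limit 7087 genes were called in that comparison, and the same 4 members.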
